A study of Mus musculus with 9 samples.

Results

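Atp5e, mt-Nd3, Pam16 and Slc25a25 encode proteins of the mitochondrial inner membrane, and they were followed across the kidneys of young, old and 3HB-treated old mice. The members were found by gene name in the 2 deposited tables, and all 4 were present, among 489 distinct genes. Atp5e and Slc25a25 were listed among the 389 genes that the authors called for young against old, and mt-Nd3 and Pam16 among the 113 called for 3HB against old. No member was in both tables, while 13 genes were. RNA sequencing had been done on kidneys of ICR mice, 3 young (2 months, untreated), 3 old (20 months, untreated) and 3 of 20 months labelled as treated with 3HB. 3HB is 3-hydroxybutyrate, a ketone body, and in the animal work of the study its sodium salt was dissolved in the water that mice drank, at 1 g/L, beginning when they were 11 months old. ICR is an outbred stock, and the legends of the study describe the animals as male. The paragraph on library preparation names muscle, while the sample labels name kidney.

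The mitochondrial inner membrane holds the respiratory chain, which pumps protons, and ATP synthase, which makes ATP as protons flow back. Most of the proteins involved are encoded in the nucleus and imported, while a small set, including mt-Nd3, is encoded in mitochondrial DNA. Kidney tubules are rich in mitochondria because the reabsorption of salt and solutes uses much ATP. Atp5e encodes the epsilon subunit of the F1 part of ATP synthase. mt-Nd3 encodes a core membrane subunit of respiratory complex I, the NADH dehydrogenase. Pam16, also called Tim16 or Magmas, encodes a subunit of the motor that pulls imported proteins into the matrix. Slc25a25 encodes SCaMC-2, a calcium-regulated carrier that exchanges ATP-magnesium for phosphate.

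The genes were placed on GRCm38, the build named in the submitters' processing notes, with GENCODE release M21. Atp5e (ENSMUSG00000016252) lies on the minus strand of chromosome 2 from 174461072 to 174464105, and Slc25a25 (ENSMUSG00000026819) on the same strand from 32414487 to 32451445. Pam16 (ENSMUSG00000014301) lies on the minus strand of chromosome 16 from 4616464 to 4624988. mt-Nd3 (ENSMUSG00000064360) spans 9459 to 9806 on the plus strand of the mitochondrial chromosome. The reference transcripts of Atp5e, mt-Nd3 and Pam16 are short, at 421, 348 and 596 nt, whereas that of Slc25a25 has 3294 nt.

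Some of these values can hold reads of other genes. The nuclear pseudogene Gm28438 on chromosome 1 matched mt-Nd3 over 345 aligned bases with 1 mismatch, T3C, counted from 1 at the first base of mt-Nd3. The opening 40 bases of both are shown because they hold the single difference, which is in capitals.

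mt-Nd3: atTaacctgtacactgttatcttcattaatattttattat
Gm28438: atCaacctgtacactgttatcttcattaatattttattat

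Pam16 was identical over 534 bases to Gm9803 on chromosome 10, which GENCODE lists as protein coding with the tag retrogene, and it matched the processed pseudogene Gm13458 at 85.5% over 378 bases. In GENCODE M21, Atp5e had no transcript of another gene at 85% identity or more, and its exons overlapped no other gene. That release holds 479 of the 489 listed genes, so the values were made with another annotation, which was not searched for copies or overlaps. Exons of Pam16 shared 455 bases with Glis2 on the opposite strand, and those of Slc25a25 shared 379 bases with Naif1, also opposite. Whether the libraries kept strand is not given in the sources used here, so reads of such partners cannot be told apart.

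The start regions of the 3 nuclear genes are shown because Atp5e and Slc25a25 were both lower at 20 months, which makes shared letters at their starts of interest, with Pam16 beside them. Each run gives 250 bases before and 50 after an annotated start (RefSeq, GRCm38.p6, minus strand, read 5′ to 3′). Capitals mark the CCAAT box (CCAAT), the GC box (GGGCGG), the core of NRF1 sites (TGCGCA), the cAMP response element (TGACGTCA) and the TATA box (TATAAA), each searched on both strands. Atp5e at chr2:174464052-174464351, Pam16 at chr16:4624897-4625196 and 2 of the 3 annotated starts of Slc25a25, at chr2:32451421-32451720 and chr2:32424017-32424316, read as follows.

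Atp5e: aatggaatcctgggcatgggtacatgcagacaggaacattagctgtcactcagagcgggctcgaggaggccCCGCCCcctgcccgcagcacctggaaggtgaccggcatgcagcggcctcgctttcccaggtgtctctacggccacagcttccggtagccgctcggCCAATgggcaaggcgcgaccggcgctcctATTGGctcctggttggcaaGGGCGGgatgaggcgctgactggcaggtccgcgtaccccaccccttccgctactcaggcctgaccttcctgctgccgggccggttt
Slc25a25, the upstream start: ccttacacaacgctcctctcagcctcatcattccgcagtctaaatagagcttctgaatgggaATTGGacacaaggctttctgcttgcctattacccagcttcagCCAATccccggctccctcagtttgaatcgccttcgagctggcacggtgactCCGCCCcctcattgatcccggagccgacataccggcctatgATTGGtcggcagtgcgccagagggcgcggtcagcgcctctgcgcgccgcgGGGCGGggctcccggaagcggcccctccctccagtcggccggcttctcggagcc
Slc25a25, the downstream start: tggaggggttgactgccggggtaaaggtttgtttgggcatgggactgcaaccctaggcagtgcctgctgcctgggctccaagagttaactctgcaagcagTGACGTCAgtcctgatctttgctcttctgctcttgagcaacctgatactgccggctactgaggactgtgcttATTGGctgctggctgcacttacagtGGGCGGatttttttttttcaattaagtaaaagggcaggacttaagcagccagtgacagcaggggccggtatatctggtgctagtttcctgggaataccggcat
Pam16: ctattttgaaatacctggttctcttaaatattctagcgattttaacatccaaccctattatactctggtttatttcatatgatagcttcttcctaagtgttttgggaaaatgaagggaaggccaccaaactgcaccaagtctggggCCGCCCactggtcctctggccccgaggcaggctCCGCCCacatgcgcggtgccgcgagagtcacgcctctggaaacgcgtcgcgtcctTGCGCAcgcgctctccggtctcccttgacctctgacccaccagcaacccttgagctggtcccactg

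Atp5e and both printed starts of Slc25a25 held CCAAT and GC boxes, which are common. The remaining start of Slc25a25, at chr2:32431102-32431401, held CCAAT boxes and no GC box, and it is not printed because it added no other motif. Of 32851 promoters of the same length, 37.4% held a CCAAT box and 35.7% a GC box. Pam16 held an NRF1 core 16 bases before its start, as did 7.76% of promoters. The downstream start of Slc25a25 held a cAMP response element 150 bases before the start, a motif found in 1.79% of promoters. No TATA box was found in these windows, against 13.6% of promoters. Such matches describe letters only, and the values per gene do not tell which start of Slc25a25 was used.

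Values are normalized expression values as deposited, whose unit (TPM or FPKM) is not given in the sources used here, so total reads and depth are unknown. Differences below are between group means of log2(value + 1) with their standard error. Since each gene is in a table because it was called there, the contrast of that table is a description and has no test. Other contrasts have a two-sided exact permutation test over 20 splits of 6 mice, which cannot go below p = 0.1. They share mice with the contrast of the call. The labels name no litter, cage or batch, and p-values measure the spread between these mice alone. In bulk kidney, fewer cells of a type and less RNA per cell cannot be told apart. Of 20 kidney markers looked up, only the proximal tubule gene Lrp2 was listed, and of 11 skeletal muscle markers 0 were listed. Lrp2 was at 68.59, 70.38 and 116.6 in young, 89.42, 87.86 and 105.3 in old and 148.08, 154.52 and 143.0 in 3HB mice. It was thus higher in every 3HB mouse than in any old mouse, by a log2 difference of 0.66. Lrp2 was itself called for 3HB, and 89.4% of the genes called for 3HB separated these groups. A single called marker does not measure the share of tubule cells. Of 18 immune and blood markers, 5 were listed for age, with Cd79a, Mzb1, Jchain and Lyz2 higher and Cd8a lower in old mice. Cd79a was low throughout, at 3.68 or less in every mouse. Of all protein-coding genes of GENCODE M21, whether expressed in kidney or not, 1.58% were in either table. The plasma cell gene Jchain was between 0.83 and 12.28 in young mice and between 60.43 and 317.39 at 20 months. The T cell gene Cd8a was at 4.22, 0.47 and 5.37 in young and 0.8, 0.51 and 0.33 in old mice, which overlapped. The part of such cells in the results below was not tested.

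Atp5e was the member with the largest change. Its value was 2514.5, 2077.23 and 1439.21 in the young mice, 147.61, 154.13 and 99.98 in the old mice and 106.85, 86.32 and 111.6 in the 3HB mice. Every young mouse lay far above every mouse of 20 months, and the old and 3HB mice overlapped. The mean was 2010.3 ± 541 in young and 133.9 ± 29.6 in old mice (SD, n = 3 each), so that the mean fell by 93.3%. The log2 difference of old minus young was -3.89 (standard error 0.31). Among the 118 genes that were lower in old mice, 30.3% of the genes called for age, only 3 fell further, and the median log2 difference was -1.06.

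In the 3HB mice Atp5e was at 101.6 ± 13.4 (SD, n = 3). The difference from old mice was -0.38 on the log2 scale (standard error 0.23), and the test did not separate the groups (two-sided exact permutation test, p = 0.3). With another mouse left out the difference lay between -0.45 and -0.26. The overlap rested on old mouse 3, since without it the difference was -0.57 and every 3HB mouse lay below both remaining old mice (two-sided exact permutation test, p = 0.1, the lowest that 3 against 2 allows). From young mice the 3HB mice differed by -4.26 (standard error 0.26), with no overlap (two-sided exact permutation test, p = 0.1). Such a gap between young and 3HB mice was present in 82.3% of the genes called for age and is thus common in that table. Between young and old mice it was present in 92.5%, and the calls used these same mice.

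Slc25a25 was also lower at 20 months, with 1 exception. Its value was 75.82, 62.52 and 65.01 in the young mice and 17.02, 29.92 and 34.04 in the old mice. Young and old mice were well apart. The means were 67.8 ± 7.07 and 27.0 ± 8.88 (SD, n = 3 each), 2.51-fold lower in old, with a log2 difference of -1.35 (standard error 0.31). This fall was the 36th largest among the 118.

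The 3HB mice were at 26.08, 21.43 and 65.24 for Slc25a25. Mice 1 and 2 lay within the range of the old mice, and mouse 3 lay within the range of the young mice. The 3HB mean of 37.6 ± 24.1 (SD, n = 3) therefore describes none of the 3 mice well. The log2 difference of 3HB minus old was 0.35 (standard error 0.56; two-sided exact permutation test, p = 0.7), and with a mouse left out it ranged from -0.13 (without 3HB mouse 3) through 0.06 (without old mouse 1) and 0.54 (without old mouse 3) to 0.65 (without 3HB mouse 2). From young mice the difference was -1.0 (standard error 0.49; two-sided exact permutation test, p = 0.3), and it ranged from -1.48 (without 3HB mouse 3) to -0.69 (without 3HB mouse 2) with a mouse left out. Among the 118 genes that were lower in old mice, 3HB mouse 3 was the highest of the 6 mice of 20 months in 17, 3HB mouse 1 in 19, 3HB mouse 2 in 44 and old mouse 3 in 16. This count does not measure how close a mouse was to young mice.

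**Figure D1:**
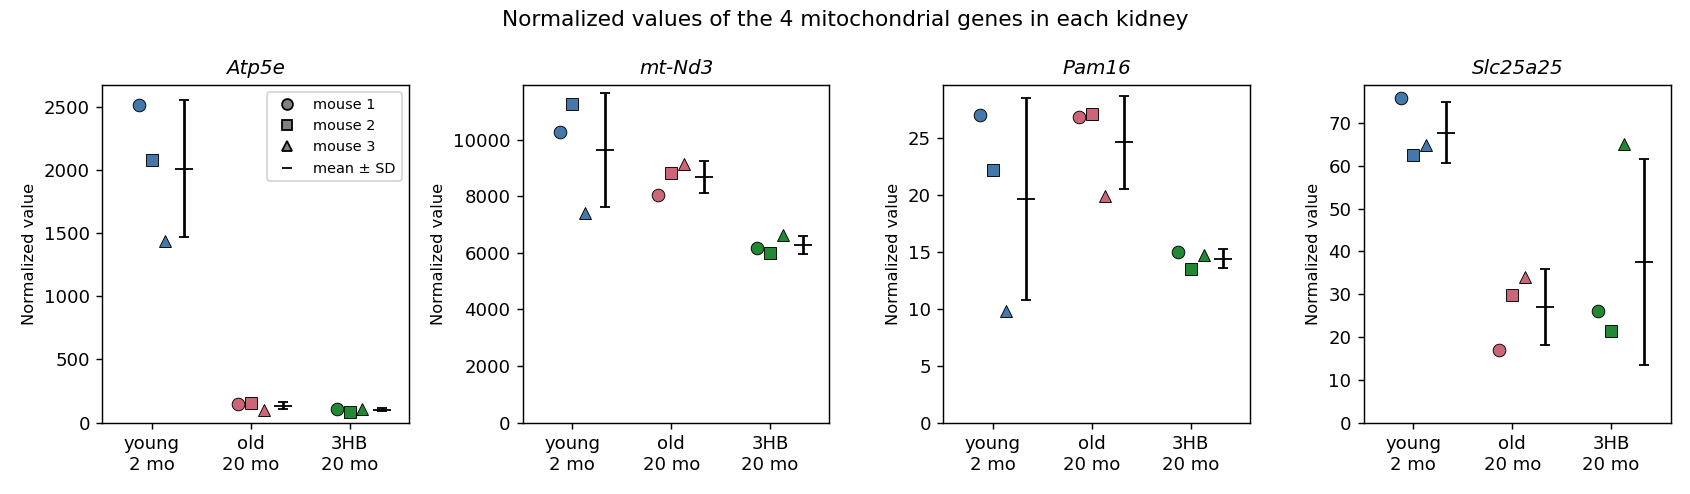
Normalized value (y axis, linear from 0) of each member in each kidney, by group, with the mean ± SD to the right of the points of each group (3 mice a group). Atp5e separated young mice from all others, mt-Nd3 and Pam16 were lower in 3HB than in old mice, and Slc25a25 of 3HB mouse 3 (65.24) lay at the level of young mice.

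mt-Nd3 was listed for 3HB and was lower in treated than in untreated old mice. Its value was 8033.83, 8825.12 and 9133.63 in the old mice and 6163.04, 6005.18 and 6616.71 in the 3HB mice. The highest 3HB mouse lay below the lowest old mouse. The means were 8664 ± 567 and 6262 ± 317 (SD, n = 3 each), so that the mean fell by 27.7%. The log2 difference of 3HB minus old was -0.47 (standard error 0.07). This was a modest change for its table, in which 61.9% of genes were lower with 3HB, since 47 of the 70 lower genes fell further and their median was -0.56. Full separation of old from 3HB mice was found for 89.4% of that table.

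The young mice were at 10277.63, 11247.09 and 7391.57 for mt-Nd3. Mice 1 and 2 lay above all old mice, and mouse 3 lay between the old and the 3HB mice. Old minus young was -0.13 on the log2 scale (standard error 0.19; two-sided exact permutation test, p = 0.5). It rested on the young mice, being -0.31 without young mouse 3, with no overlap, -0.08 without young mouse 1 and -0.01 without young mouse 2. Without old mouse 1 it was -0.08. 3HB minus young was -0.60 (standard error 0.19; two-sided exact permutation test, p = 0.1), with no overlap, and 38.1% of the genes of that table showed none. Over all 6 mice of 20 months against the young mice, a test with 84 splits, the log2 difference was -0.37 (standard error 0.21; two-sided exact permutation test, p = 0.119). With a mouse left out it ranged from -0.55 (without young mouse 3) to -0.24 (without young mouse 2).

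Pam16 was listed for 3HB as well, also with lower values in the treated mice. It was at 26.84, 27.14 and 19.89 in the old mice and at 15.02, 13.46 and 14.69 in the 3HB mice. The groups did not overlap, and the 3HB mice lay close together. The means were 24.6 ± 4.10 and 14.4 ± 0.822 (SD, n = 3 each), so that the mean fell by 41.6%. The log2 difference was -0.72 (standard error 0.15), the 26th largest fall among the 70.

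The young mice were at 27.04, 22.17 and 9.78 for Pam16, overlapping the old mice and spanning the 3HB mice. Young mouse 3 was the lowest of all 9 mice. Old minus young was 0.41 (standard error 0.44; two-sided exact permutation test, p = 0.6), and it was -0.01 without young mouse 3 and 0.68 without young mouse 1. 3HB minus young was -0.32 (standard error 0.42; two-sided exact permutation test, p = 0.5), and it was -0.73 without young mouse 3, -0.18 without young mouse 2 and -0.04 without young mouse 1. Old and young mice overlapped for both mt-Nd3 and Pam16, and 19.5% of the genes called for 3HB showed no overlap there.

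**Figure D2:**
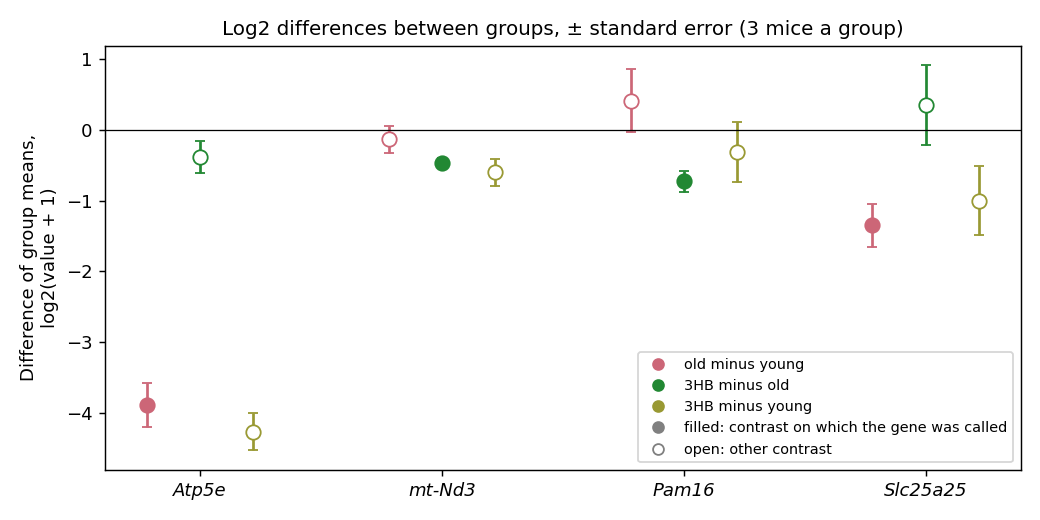
Difference between group means of log2(value + 1) (y axis) for each member in 3 contrasts, with the standard error as bars (3 mice a group). Filled points are the contrasts on which the authors called the gene and open points the others. The fall of Atp5e with age (-3.89) was larger than every other difference with a filled point, and bars of 1 standard error crossed 0 for both contrasts of Pam16 with young mice, for old minus young of mt-Nd3 and for 3HB minus old of Slc25a25.

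Young mouse 3 differed from the other young mice across the genes called for 3HB, a contrast of 2 groups without young mice. Whether young mice entered the normalization or the fit behind that call is not given in the sources used here. It lay outside both other young mice, on the side to which 3HB mice lay from old mice, in 84 of 113 genes (74.3%). The same count was 8 (7.08%) for young mouse 1 and 21 (18.6%) for young mouse 2. Unless values tie, 1 of the 3 young mice is always outermost on a given side, so these counts divide the 113 genes. Mice that did not differ would share them about equally. Genes that vary together are not separate observations in such a count. mt-Nd3 and Pam16 were among the 84. For Pam16 it lay below every 3HB mouse, and for mt-Nd3 it lay above every 3HB mouse and below every old mouse. What set this mouse apart was not tested, and the labels give it no distinct treatment.

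**Figure D3:**
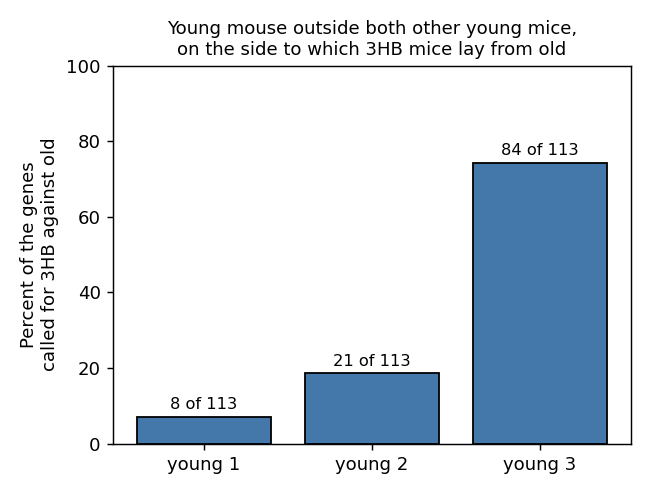
Percent (y axis, from 0) of the 113 genes called for 3HB against old in which a young mouse lay outside both other young mice, on the side to which 3HB mice lay from old mice. Young mouse 3 did so in 84 genes, young mouse 1 in 8 and young mouse 2 in 21. Unless values tie, 1 young mouse is always outermost on that side, so the counts divide the 113 genes.

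For each member, the genes with the most similar values over the 9 mice were listed by the Pearson correlation of log2(value + 1), among 449 genes whose highest group mean was at least 1. All candidates are genes that had been called on these mice, so these correlations describe shared group patterns. mt-Nd3 was most like Tmem256 (r = 0.978), a gene annotated to the mitochondrial inner membrane, then Rpl39 (0.956), which encodes a ribosomal protein, and the pseudogene Gm8325 (0.934). Tmem256 was at 605.95, 582.34 and 370.16 in young, 431.65, 451.89 and 475.98 in old and 340.08, 323.35 and 349.05 in 3HB mice. Its order of mice resembled that of mt-Nd3, with young mouse 3 between the old and the 3HB mice. Pam16 was most like Rnaset2b (0.920), a ribonuclease gene, Dynlt1b (0.917), which encodes a dynein light chain, and Rps13 (0.899), a ribosomal protein gene. Without young mouse 3 these 6 correlations lay between 0.875 and 0.982.

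Atp5e was most like Gm15217 (r = 0.983), 4930412C18Rik (0.982) and the steroid dehydrogenase gene Hsd3b4 (0.982), which was listed at 0 in all 6 mice of 20 months. Slc25a25 was most like the histone gene H4c8 (0.905), Gm29562 (0.835) and the organic anion transporter gene Slc22a19 (0.832). H4c8 was at 13.05, 10.76 and 19.98 in the 3HB mice and at 29.01 or more in the young mice. It was picked for its likeness to Slc25a25 over these same mice, so its higher mouse 3 is no separate support. In 3HB mouse 3, Gm29562 (24.15) lay below old mouse 3 (25.78), and Slc22a19 (43.23) lay below old mouse 2 (48.28). Between members, r was 0.735 for Atp5e and Slc25a25 and 0.683 for mt-Nd3 and Pam16, the pairs of the same table. Across tables it was 0.651 for Atp5e and mt-Nd3, 0.421 for mt-Nd3 and Slc25a25, 0.099 for Atp5e and Pam16 and -0.15 for Pam16 and Slc25a25.

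**Figure D4:**
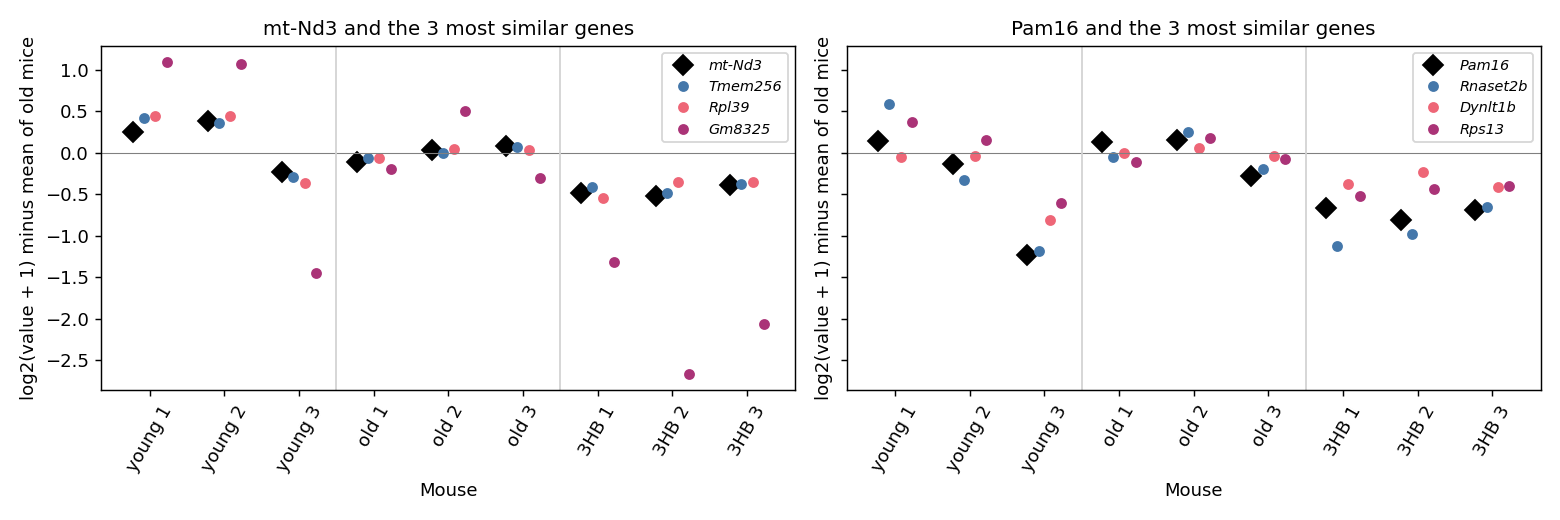
log2(value + 1) minus the mean of the old mice (y axis) in each of the 9 mice (x axis) for mt-Nd3 (left) and Pam16 (right), drawn as diamonds, and for the 3 genes most like each, drawn as dots. Young mouse 3 lay below the other young mice in all 8 genes, and all 3HB values lay below the mean of the old mice.

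Other genes of the same machinery were looked up in 8 lists that held 353 annotated genes, and 6 of them were in either table, namely the members, Slc25a10 and Cox8b. That is 1.70%, beside 347 of 21951 protein-coding genes of GENCODE M21 (1.58%), whether expressed in kidney or not. The share of the lists was thus near that of protein-coding genes. Of all 55450 genes of that release, 0.86% were in either table. The members, chosen with earlier results known, are 4 of the 6. Of 37 mitochondrially encoded genes, mt-Nd3 alone was listed, and of 60 genes for complex I none other was. Of 24 genes for ATP synthase and its assembly, Atp5e alone was listed. Pam16 was the single one of 41 genes for protein import, and Slc25a25 and Slc25a10 were the listed ones of 52 SLC25 carriers and relatives. Of 53 genes for complexes II to IV, Cox8b alone was listed. None of 79 genes of the mitochondrial ribosome and none of 20 genes for biogenesis and dynamics was listed. Genes outside the tables were not analysed here, so the other subunits have no values to set beside the members.

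Slc25a10, the mitochondrial dicarboxylate carrier, was lower in old mice, as Slc25a25 was. It was at 290.3, 390.3 and 275.21 in young, 143.05, 126.63 and 142.7 in old and 151.26, 110.56 and 134.13 in 3HB mice. Young mice lay above all others, with a log2 difference of old minus young of -1.19 (standard error 0.17). 3HB minus old was -0.07 (standard error 0.14; two-sided exact permutation test, p = 0.7), and among the genes called for age 13.4% separated old from 3HB mice.

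Cox8b, a subunit of cytochrome c oxidase typical of muscle and brown fat, was listed as higher in old mice. It was at 24.3, 0.53 and 56.07 in the old mice, between 1.79 and 2.14 in the young mice and at 0.59, 0.59 and 0 in the 3HB mice. Old mice 1 and 3 were high and old mouse 2 was below every young mouse, so the groups overlapped.

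By the deposited annotation, 43 of the 489 genes carried a GO term naming mitochondria, a set chosen after the values had been seen. Of these, 15 were called for 3HB (13.3% of that table), with 9 lower and 6 higher, and a median log2 difference of -0.38 beside -0.42 over all 113 genes. Another 28 were called for age (7.20% of that table), with 12 lower and 16 higher in old mice, and a median of 0.84 beside 1.14 over all 389 genes. These counts stand beside the shares of all called genes, of which 61.9% were lower with 3HB and 30.3% were lower in old mice, and the difference from those shares was not tested. KEGG places 4 genes in oxidative phosphorylation, which are Atp5e, mt-Nd3, Cox8b and Atp4a, a proton pump gene.

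Gm10925 was added after its values had been seen. It is annotated as a nuclear pseudogene on chromosome 1, and its 678 bases were identical to mt-Atp6, the mitochondrially encoded subunit a of ATP synthase, so reads of both cannot be told apart. It was at 15715.97, 12961.19 and 15836.13 in old, 12407.13, 13307.25 and 10590.48 in 3HB and 11776.77, 8271.57 and 14287.07 in young mice. Like mt-Nd3 it was lower with 3HB, by a log2 difference of -0.29, but with overlap. Unlike mt-Nd3 it was lowest in young mouse 2 and highest of the young in mouse 3.

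**Figure D5:**
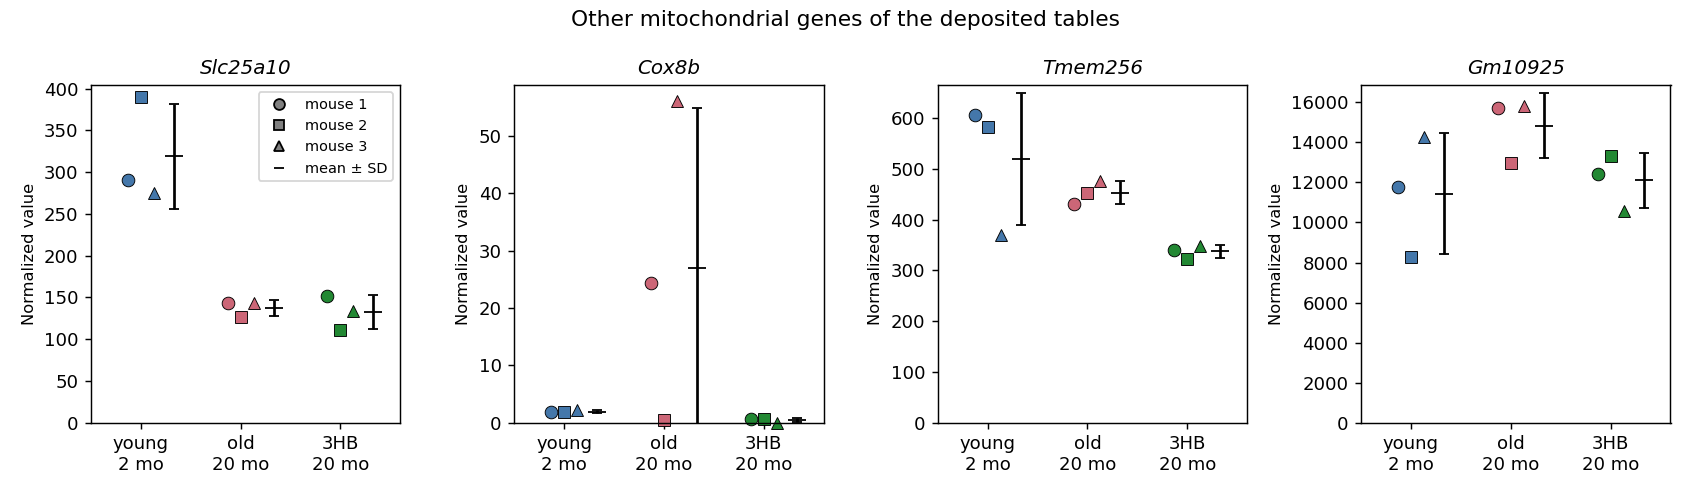
Normalized value (y axis, linear from 0) of Slc25a10, Cox8b, Tmem256 and Gm10925 in each kidney, with the mean ± SD of each group (3 mice), the SD bar of Cox8b in old mice ending at 0 at its lower side. Slc25a10 was lower in all 6 mice of 20 months, Cox8b was high in 2 old mice, Tmem256 followed the pattern of mt-Nd3, and Gm10925 varied widely in young mice.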

How the data were processed

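RNA from 9 kidneys was measured by paired-end sequencing. The authors deposited 2 comma-separated tables with a normalized value per gene and mouse and annotation from GO and KEGG, and each table holds only genes called by the authors in that comparison. The submitters' processing notes name CASAVA, HISAT2, StringTie and GRCm38, and their versions, the unit, the test and the threshold are not given in the sources used here. Since uncalled genes were not analysed here, no model across all genes was fitted. Members, lists and tests were chosen with earlier results of these data known. Named genes are the members, listed mitochondrial genes in either table, and the 3 genes most correlated with each member. Lrp2, Cd79a, Mzb1, Jchain, Lyz2 and Cd8a come from the marker lists, Atp4a from the KEGG annotation, overlapping genes and copies from the gene models. Gm10925 was added after its values had been seen. Differences were taken between group means of log2(value + 1) and tested by two-sided exact permutation outside the contrast of the call. Replicates were grouped by the labels. Copies were searched with blastn in GENCODE M21 transcripts. Of the members, 3 had start regions in the RefSeq table. The code for differences and permutations was tested on simulated data. Python 3.11.15, numpy 2.4.6, pandas 2.3.3 and matplotlib 3.10.9 were used.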

Additional observations from a re-analysis of the deposited data

Results flagged for a closer look

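Slc25a25 was at 65.24 in 3HB mouse 3, far above the other mice of 20 months, which lay between 17.02 and 34.04. On the values as deposited, the gap to the next mouse was 0.647 of the whole range, above Dixon's 95% critical value for 6 values. On the log2(value + 1) scale, an alternative added after seeing the data, it was 0.489 of the range and below that value, so the call depends on the scale. The gap was examined at both ends for 6 genes, and chance exceeds this limit in about 1 of 20 groups. The old and 3HB mice were pooled here although they are separate groups in the labels.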

How the results depend on the processing

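The 16 differences of the members kept their direction in 154 of 160 alternatives (a pseudocount of 0.1, group medians, the ratio of arithmetic means, the replicate block and each mouse left out). The replicate block gives the same difference by construction, so it could not turn. On the contrasts for which a gene was called, a clear difference had put it in its table, so a turn was unlikely there. The count of 154 is therefore no measure of robustness. For the 4 differences of all mice of 20 months from young mice, medians and the block were not run, and the ratio of arithmetic means, not among the 160, was below 1 for Pam16 (0.992), the opposite direction to its log2 difference. No tested difference passed 0.05, which 3 mice against 3 cannot reach and 6 against 3 can. The 6 that turned were all in differences smaller than their error. For Slc25a25, 3HB minus old turned to -0.19 with group medians and ranged from -0.13 (without 3HB mouse 3) to 0.65 with a mouse left out. For Pam16, old minus young ranged from -0.0057 (without young mouse 3) to 0.68, and all mice of 20 months minus young mice (0.05 with every mouse) from -0.37 to 0.32, where leaving out old mouse 1 (-0.05), old mouse 2 (-0.06) or young mouse 3 turned it. The cause was not tested. The labels do not say whether same replicate numbers mark pairs. Deviations of same-numbered mice correlated between -0.24 and 0.16, and those of different-numbered mice between -0.215 and 0.271. With 3 mice a group and called genes only, this cannot decide whether same-numbered mice were handled together. With the replicate block the difference of Atp5e for 3HB minus young stays at -4.26 by construction, with an exact sign-flip p of 0.25, the smallest 3 pairs allow. All 12 genes most like the members were shared when the limit on the group mean was dropped. Leaving out young mouse 3 for these correlations was an alternative chosen after seeing the data. Depth is unknown, so counting error could not be given.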
